A study of Mus musculus with 34 samples.

Results

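Untreated mice provided 2 brain regions for this comparison, the hippocampus and the thalamus, which was dissected together with the striatum. It rested on 8 of the 34 libraries of the series, 4 WT CON hippocampus and 4 WT CON thalamus libraries, chosen by the region and treatment in their labels. The WT CON mice were wildtype C57BL/6 animals labelled as vehicle treated. They received no irradiation, no bone marrow transplant and no CSF1R inhibitor, and the same 4 animals gave both regions, so that replicate 1 of either region was 1 mouse. The mice were perfused and bulk RNA was read from each dissected region, so a level reflects every cell in the piece, and fewer cells of a type cannot be told apart from less RNA per cell. Where other mice are used to look at the same regional difference, GFP-BM CON mice had been irradiated with 1000 cGy and given bone marrow from CAG-EGFP mice, and GFP-BM REPOP mice had in addition been fed PLX3397, a CSF1R inhibitor that removes microglia, at 600 ppm over 14 days, starting 3.5 months after the transplant, and had then recovered for 6 months. The methods describe the recipients as male. All 8 libraries held the X-inactivation RNA Xist, at 2.51 to 29.6 FPKM, and the Y-linked Ddx3y was at 0.0213 FPKM or less in each. Ddx3y was also at 0.0101 FPKM or less in the GFP-BM REPOP libraries of these regions, while 1 of 4 hippocampus and 1 of 3 thalamus libraries of GFP-BM CON mice had more than 1 FPKM.

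The hippocampus is built from excitatory neurons of the pallium, the dorsal part of the developing forebrain. Granule cells of the dentate gyrus send mossy fibres to CA3 pyramidal cells, which project to CA1, and all of them load glutamate into vesicles with the transporter made from Slc17a7. The thalamus relays sensory and motor signals to the cortex with neurons that use another vesicular glutamate transporter, from Slc17a6, and that depend on the transcription factors Tcf7l2 and Gbx2. The striatum consists mostly of GABAergic projection neurons with dopamine and adenosine receptors. Below the thalamus lies the hypothalamus, whose peptide neurons control arousal, feeding and water balance, and behind it the midbrain, which holds dopamine and serotonin neurons.

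Each library held between 17622874 and 23646772 reads, recovered from the steps between the FPKM values, and only 0.41% of values were 0. These properties of the libraries bear on every result. Libraries of 1 region varied: the median SD of a gene on the log2 scale was 0.277 between hippocampus libraries and 0.286 between thalamus libraries, against 0.097 in the WT CON cortex. The axis of largest variance did not separate the regions. Principal component 1 carried 45.8% of the variance and placed hippocampus replicate 1 (-56.7) beside thalamus replicate 2 (-54.3), at the opposite end from thalamus replicate 1 (57.5). It ran with the level of genes of high GC content relative to genes of low GC content, a measure of the library that was 2.44 in hippocampus replicate 1, 2.81 in thalamus replicate 2 and 0.54 in thalamus replicate 1, and 0.28 to 0.6 in the WT CON cortex libraries. This GC measure overlapped between the regions (1.04 to 2.44 and 0.54 to 2.81), and its part in single results was not tested, except where a corrected value is given.

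**Figure D1:**
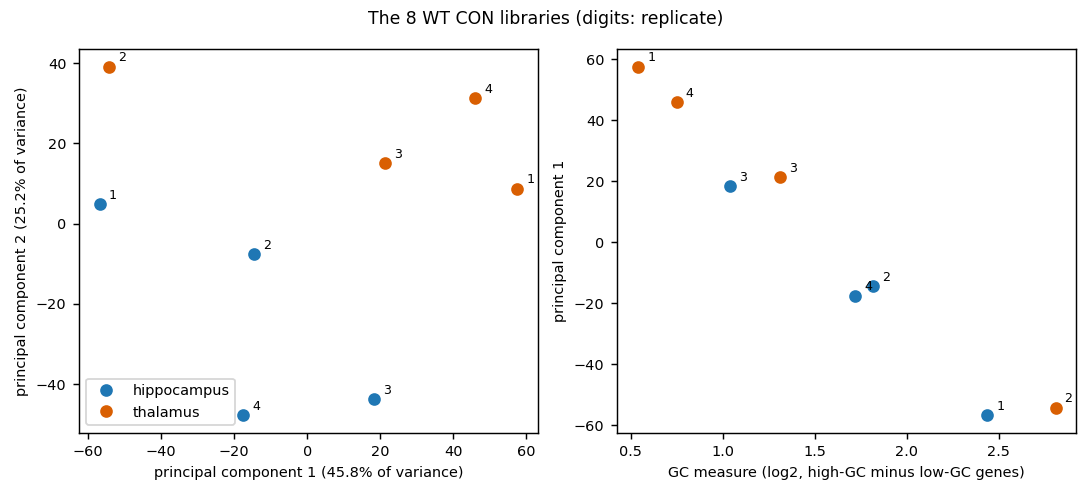
Principal components of the 8 WT CON libraries (left, component scores) and component 1 against the GC measure (right, log2 level of high-GC minus low-GC genes); each point is 1 library and the digit is its replicate. Component 1 runs from -56.7 in hippocampus replicate 1 to 57.5 in thalamus replicate 1 as the GC measure goes from 2.44 to 0.54, while component 2 has the 4 thalamus libraries at its upper end.

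The tissue in each library was checked against markers of the regions, which were chosen with earlier results of these data known. Summed over 12 markers, genes of dentate granule cells were higher in hippocampus replicates 1, 3 and 4 than in any thalamus library. Prox1 of the same list was not raised in replicate 1, and its values are given below with that list. C1ql2, which encodes a secreted synapse organizer of mossy fibres, was at 68.1, 1.26, 76.2 and 140.2 FPKM in hippocampus replicates 1 to 4, and at 11.3, 31.5, 9.29 and 10.1 FPKM in thalamus replicates 1 to 4. The library labelled hippocampus replicate 2 was thus lower than any thalamus library, and Lct, another gene of dentate granule cells, was at 11.2, 0.158, 11.9 and 15.5 FPKM in the hippocampus and 0.813, 1.71, 0.249 and 0.149 FPKM in the thalamus. The 12 dentate markers summed to 134, 39.9, 199.7 and 266 FPKM in the hippocampus libraries and to 64, 66, 51.3 and 58.4 FPKM in the thalamus libraries.

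Genes of the olfactory system marked the same library. They were chosen after their values were seen. Doc2g and Cdhr1, known from projection neurons of the olfactory bulb, were at 4.38, 165, 17.5 and 2.47 FPKM and 5.36, 88.1, 9.29 and 5.26 FPKM in hippocampus replicates 1 to 4. Omp, the marker of mature olfactory sensory neurons, was at 0.221, 45.5, 0.502 and 0.236 FPKM. The sum of 7 genes of the olfactory mucosa was 0.922, 369, 2.54 and 0.435 FPKM in the hippocampus libraries and 1.19, 42.4, 1.59 and 2.12 FPKM in the thalamus libraries, where replicate 2 stood above the others. The mouse of replicate 2 also gave WT CON cortex replicate 1, where this sum was 41.0 FPKM, against 0.431 and 2.46 FPKM in the other WT CON cortex libraries. Hippocampus replicate 2 therefore carried transcripts known from a tissue that its label does not name. Which calls remained without this library is given with the counts.

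Striatal transcripts were as abundant in 3 of the 4 hippocampus libraries as in thalamus libraries. Ppp1r1b, which encodes the dopamine-regulated phosphatase inhibitor DARPP-32, was at 226, 253, 237 and 35.8 FPKM in hippocampus replicates 1 to 4 and at 188, 121, 382 and 86.4 FPKM in the thalamus libraries, whose dissection included the striatum. The adenosine receptor gene Adora2a of indirect-pathway neurons was at 18.8, 28.3, 28.2 and 1.85 and 22.2, 10.9, 54.3 and 8.54 FPKM, and the dopamine receptor gene Drd1 of direct-pathway neurons at 10.7, 16.9, 17.9 and 1.2 and 11.3, 4.26, 24.3 and 5.08 FPKM. Hippocampus replicates 1, 2 and 3 lay within the range of the thalamus libraries for each of these genes, and replicate 4 lay below all of them. The 26 striatal markers summed to 1055, 1473, 1380.1 and 374 FPKM in the WT CON hippocampus. In the GFP-BM CON hippocampus the same sum was 439, 398, 385 and 415 FPKM.

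Other tissue differed between single libraries. Ttr, the transthyretin gene of the choroid plexus, the epithelium that makes cerebrospinal fluid, was at 6324, 17.1, 740.0 and 70.5 FPKM in the hippocampus and 96.6, 243, 83.6 and 407 FPKM in the thalamus, with hippocampus replicate 1 far above the rest. Of 9 choroid plexus genes tested, 0 were called, and the summed level of the list ran from 36.6 to 6589 FPKM within the hippocampus. Th, the rate-limiting enzyme of dopamine synthesis, was at 2.44, 69.1, 5.3 and 0.225 FPKM and 7.16, 40.2, 10.6 and 10.6 FPKM, highest in replicate 2 of either region.

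**Figure D2:**
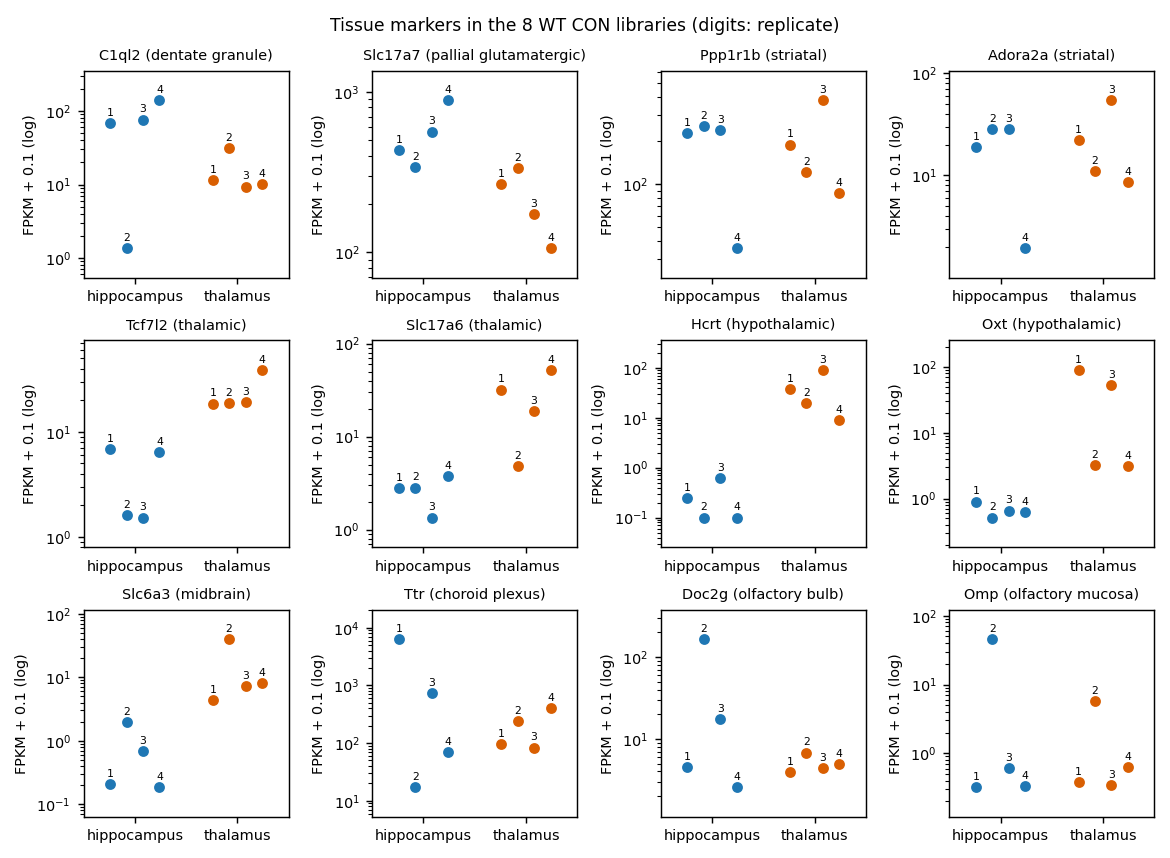
FPKM + 0.1 (log axis) of 12 tissue markers in the WT CON libraries, hippocampus in blue and thalamus in orange; each point is 1 library and the digit its replicate. Hippocampus replicate 2 has C1ql2 at 1.26 FPKM and Doc2g at 165 FPKM, hippocampus replicate 4 alone is low in Ppp1r1b, and Hcrt is at 8.74 FPKM or more in the thalamus libraries only.

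Between the regions, 44 of 13472 genes passed an adjusted p of 0.05 (limma-trend on log2(FPKM + 0.1), two-sided, Benjamini-Hochberg over all genes tested). Of these, 6 were higher in the hippocampus, 0.0445% of genes tested, and 38 were higher in the thalamus, 0.282%. The hypothalamic peptide genes Hcrt and Pmch had the largest differences among the 38, and the immediate early gene Arc was among the 6. Of the 38, 17 reached 1 FPKM in 0 hippocampus libraries and so entered the test through their thalamus libraries alone, among them Hcrt, Pmch, Otp, Glra1, Slc6a5, En1, Rln3, Gbx2, Gabrq and Chrm5. In each of the 44 genes the 4 thalamus libraries did not overlap with the 4 hippocampus libraries. Such separation was more common than calls: 829 genes (6.15%) had every hippocampus library above every thalamus library and 557 (4.13%) the reverse. At an unadjusted p under 0.05, 1220 genes had the higher level in the hippocampus and 963 the lower one, and the lowest adjusted p, of Glra1 and Plekha2, was 0.019. The count of calls depended on single libraries. Without hippocampus replicate 1, 2, 3 or 4 the numbers higher in the hippocampus were 9, 5, 0 and 1 and those higher in the thalamus 86, 10, 2 and 14. Without thalamus replicate 1, 2, 3 or 4 they were 1, 105, 0 and 0 and 8, 122, 0 and 3 (1642 genes at an unadjusted p under 0.05 where both were 0). The direction of all 44 genes stayed the same in each of these fits. Without hippocampus replicate 2, 9 of the 44 remained called (Hcrt, Pmch, Glra1, En1, Irs4, Dgkk, AW551984, Kctd9 and Plekha2), and the other 35 had adjusted p between 0.051 and 0.071 (limma-trend). With the animal as a block, 0 genes were called in the hippocampus and 1, Hcrt, in the thalamus (1513 at an unadjusted p under 0.05), and with a correction for GC content and length 98 and 319 genes were called, among them 41 of the 42 genes with a known GC content.

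The largest differences were in peptide genes of the lateral hypothalamus. Hcrt (Entrez 15171, chromosome 11, 100761693 to 100762931 on GRCm38), the precursor of the wake-promoting orexins, was at 0.144, 0, 0.524 and 0 FPKM in hippocampus replicates 1 to 4 and at 37.2, 19.6, 91.3 and 8.74 FPKM in thalamus replicates 1 to 4 (log2 difference -7.13, SE 0.80, adjusted p = 0.024). These values rest on 9 reads in the 4 hippocampus libraries together and 2111 in the thalamus libraries. Hcrt was called without hippocampus replicate 2 as well (adjusted p = 0.049), and with the animal as a block its adjusted p was 0.0033. Pmch (Entrez 110312, chromosome 10, 88091072 to 88092374), which encodes melanin-concentrating hormone of a neighbouring set of neurons that promote feeding and sleep, was at 0.112, 0.390, 0.117 and 0.0659 FPKM in the hippocampus and 56.6, 8.22, 41.8 and 9.89 FPKM in the thalamus (log2 difference -6.41, SE 0.67, adjusted p = 0.020). For both genes even the lowest thalamus library was more than every hippocampus library, and thalamus replicates 1 and 3 were the highest.

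Otp (Entrez 18420), a homeodomain factor of neuroendocrine hypothalamic neurons, was at 0.0355, 0, 0 and 0.334 FPKM in the hippocampus and 3.56, 1.62, 5.43 and 2.33 FPKM in the thalamus (log2 difference -4.29, SE 0.58, adjusted p = 0.027). Oxt and Avp, the oxytocin and vasopressin genes, did not pass although their libraries were separate. Oxt was at 0.802, 0.413, 0.557 and 0.523 FPKM in the hippocampus and 90.6, 3.16, 53.3 and 3.03 FPKM in the thalamus (log2 difference -4.50, SE 1.08, adjusted p = 0.11), and Avp at 0.745, 0.575, 0.863 and 1.75 and 85.4, 5.11, 95.1 and 3.26 FPKM (log2 difference -4.28, SE 1.09, adjusted p = 0.12). Within the thalamus, replicates 1 and 3 were far above replicates 2 and 4. Of the 12 hypothalamic genes listed, 9 were tested, 3 were called higher in the thalamus and 0 in the hippocampus. Among all genes tested, 0.282% were called higher in the thalamus. The median log2 difference of the list was -4.28 where the median of all genes was 0.02. The 3 called genes, Hcrt, Pmch and Otp, entered the test through their thalamus libraries alone, so this count and median only describe the genes that passed the filter. Pomc of the arcuate nucleus was at 3.76, 4.2, 2.07 and 34.7 FPKM in the thalamus, high in replicate 4 only, so that the hypothalamic genes were not present in 1 ratio across libraries. The summed level of the list was 299, 58.1, 319.8 and 70.5 FPKM in the thalamus and 9.73, 49.4, 9.21 and 11.8 FPKM in the hippocampus, where the high value of replicate 2 came from Trh, at 40.6 FPKM.

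The sequences just before the start sites of Hcrt and Pmch and of Gbx2, the thalamic transcription factor among the calls, are shown because these genes stand for the hypothalamic and thalamic parts of the difference. They are the 250 bases upstream in RefSeq, build GRCm38.p6, with TATAAA (the TATA box, sense strand), CTTTGAT (TCF/LEF), CACGTG (E-box) and TGACGTCA (cAMP response element; the last 3 on both strands) in capitals.
Hcrt, chr11:100762932-100763181 (minus strand): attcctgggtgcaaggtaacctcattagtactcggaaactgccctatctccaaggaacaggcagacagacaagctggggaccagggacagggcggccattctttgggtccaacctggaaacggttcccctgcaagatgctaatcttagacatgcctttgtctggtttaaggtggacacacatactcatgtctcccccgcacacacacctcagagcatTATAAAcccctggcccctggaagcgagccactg
Pmch, chr10:88090822-88091071 (plus strand): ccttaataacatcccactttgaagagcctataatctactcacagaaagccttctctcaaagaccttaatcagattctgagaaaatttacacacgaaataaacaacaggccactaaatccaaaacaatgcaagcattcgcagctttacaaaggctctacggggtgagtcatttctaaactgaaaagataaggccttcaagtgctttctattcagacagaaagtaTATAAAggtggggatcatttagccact
Gbx2, chr1:89931177-89931426 (minus strand): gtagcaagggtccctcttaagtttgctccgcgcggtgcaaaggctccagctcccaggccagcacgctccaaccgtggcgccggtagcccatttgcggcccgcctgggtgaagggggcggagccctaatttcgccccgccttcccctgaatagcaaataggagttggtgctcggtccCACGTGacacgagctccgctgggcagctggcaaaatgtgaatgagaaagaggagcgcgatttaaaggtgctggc
TATAAA stands 33 bases before the start in Hcrt and 27 bases in Pmch, and Gbx2 has the E-box CACGTG. Of the 38 genes higher in the thalamus, 28 had a promoter in the table, and TATAAA was in 4 of them (H2-Q2, Hcrt, Pmch and Rln3), CACGTG in 5, CTTTGAT in 0 and TGACGTCA in 0. Among all 32851 promoters, TATAAA was found in 7.59%, CACGTG in 6.02%, CTTTGAT in 3.21% and TGACGTCA in 1.55%. Among the 10562 tested genes with a promoter in the table the shares were 4.67%, 9.95%, 2.67% and 3.02%. Of the 6 genes higher in the hippocampus, 4 had a promoter in the table and 0 held any of the 4 motifs. A match says only that these letters are in the window.

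Ddc and En1 of the midbrain monoamine list were called, and Pcbd1 and Chrm5, which are not in that list, are described beside them. Ddc (Entrez 13195, chromosome 11, 11814101 to 11898144), which encodes the decarboxylase shared by dopamine and serotonin synthesis, was at 4.14, 4.84, 3.41 and 3.02 FPKM in hippocampus replicates 1 to 4 and 13.3, 32.4, 15.7 and 29.8 FPKM in thalamus replicates 1 to 4 (log2 difference -2.45, SE 0.31, adjusted p = 0.024). En1, an engrailed transcription factor of the midbrain and hindbrain, was at 0.115, 0, 0.0171 and 0.0193 FPKM and 1.25, 4.44, 1.71 and 2.16 FPKM (log2 difference -4.09, SE 0.47, adjusted p = 0.024). Pcbd1, an enzyme that recycles the cofactor of monoamine synthesis, was at 7.82, 4.98, 4.81 and 6.82 FPKM and 13.3, 20.3, 15.7 and 19.5 FPKM (log2 difference -1.49, SE 0.21, adjusted p = 0.032). Chrm5, the muscarinic receptor found on midbrain dopamine neurons, was at 0.216, 0.167, 0.175 and 0.0565 FPKM and 1.28, 1.05, 1.56 and 1.58 FPKM (log2 difference -2.56, SE 0.36, adjusted p = 0.031). All 4 genes were higher in every thalamus library than in any hippocampus library.

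The dopamine transporter gene Slc6a3 had separate regions without passing, at 0.109, 1.88, 0.595 and 0.0856 FPKM in the hippocampus and 4.23, 39.6, 7.15 and 7.99 FPKM in the thalamus, highest in thalamus replicate 2 (log2 difference -4.38, SE 0.89, adjusted p = 0.082). The serotonin transporter gene Slc6a4 was at 4.25, 0.839, 1.81 and 20.0 FPKM and the serotonin-synthesis gene Tph2 at 5.2, 1.33, 2.38 and 29.1 FPKM in the thalamus, both highest in replicate 4 (adjusted p = 0.088 and 0.13). Of the 8 midbrain monoamine genes listed, 7 were tested and 2 were called, both higher in the thalamus, and 6 of the 7 had regions without overlap, with a median log2 difference of -3.02. Th was the exception, with hippocampus replicate 2 the highest of the 8 libraries. Of all genes tested, 4.13% had no overlap with the thalamus higher and 0.282% were called in that direction. En1, 1 of the 2 calls, entered the test through its thalamus libraries alone. The count and median of this list therefore only describe the genes that passed the filter.

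Glra1, Slc6a5 and Rln3 are described together after their values were seen, and no list of such genes was counted. Glra1 (Entrez 14654, chromosome 11, 55514239 to 55608198), the alpha 1 subunit of the glycine receptor of brainstem and spinal cord, was at 0.328, 0.242, 0.0311 and 0.140 FPKM in the hippocampus and 7.05, 5.05, 7.44 and 13.9 FPKM in the thalamus (log2 difference -4.92, SE 0.44, adjusted p = 0.019). It was called in 7 of the 8 fits that left out 1 library, more than any other gene. Slc6a5, the transporter of glycinergic terminals, was at 0.132, 0, 0.0343 and 0.0193 FPKM and 0.690, 6.48, 1.91 and 4.0 FPKM (log2 difference -4.20, SE 0.65, adjusted p = 0.042). Rln3, the relaxin-3 peptide of the pontine nucleus incertus, was at 0.177, 0, 0 and 0 FPKM and 2.13, 2.53, 1.08 and 1.35 FPKM (log2 difference -3.79, SE 0.49, adjusted p = 0.024), on 2 and 71 reads in all. All 3 genes entered the test through their thalamus libraries alone, and the size of their fold change depends on the 0.1 FPKM added before the logarithm.

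Markers of thalamic relay neurons gave 1 call, higher in the thalamus. Gbx2 (Entrez 14472), a homeobox gene needed for the development of thalamic nuclei, was at 0.335, 0.274, 0.0823 and 0.742 FPKM in hippocampus replicates 1 to 4 and 2.83, 3.66, 3.65 and 7.5 FPKM in thalamus replicates 1 to 4 (log2 difference -3.40, SE 0.49, adjusted p = 0.034). Tcf7l2, the Wnt-pathway factor kept on in thalamic neurons, was at 6.76, 1.5, 1.42 and 6.26 and 18.4, 18.8, 19.2 and 38.8 FPKM, with regions separate but an adjusted p of 0.080 (log2 difference -2.82, SE 0.55). The glutamate transporter gene Slc17a6 was at 2.68, 2.73, 1.25 and 3.64 FPKM in the hippocampus and 32, 4.72, 18.6 and 52.2 FPKM in the thalamus (log2 difference -2.97, SE 0.67, adjusted p = 0.096). Thalamus replicate 2, the library with the highest GC measure, had the lowest Slc17a6 of its region, next above the hippocampus libraries. All 17 relay-neuron genes tested had a log2 difference below 0, 8 of them with regions that did not overlap, and the median was -1.65. Among all genes tested, 4.13% had no overlap with the thalamus higher and 0.282% were called in that direction. Gbx2 entered the test through its thalamus libraries alone, so these counts and the median only describe the genes that passed the filter. The relay-neuron genes were not absent from the hippocampus: Prkcd, a protein kinase C of thalamic relay cells, was at 29.7, 16.8, 18.7 and 48.9 FPKM there and 69.2, 85.7, 45.8 and 88.6 FPKM in the thalamus (adjusted p = 0.11).

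The habenula, which borders the thalamus, gave 0 calls among 9 genes tested (median -1.35). Its receptor gene Gpr151 was at 4.7, 0.655, 0.455 and 0.0906 FPKM in the hippocampus and 1.96, 0.823, 1.28 and 12.4 FPKM in the thalamus, high in hippocampus replicate 1 and thalamus replicate 4. Cholinergic genes were low throughout: Chat, which makes acetylcholine, was at 1.4, 1.45, 1.39 and 0.140 and 2.48, 4.05, 5.93 and 2.9 FPKM (log2 difference -1.96, SE 0.62, limma-trend adjusted p = 0.17). In this list 3 of the 4 genes tested had no overlap with the thalamus higher, against 4.13% of all genes tested. The 6 genes listed summed to 0.485 to 4.67 FPKM in the hippocampus and 8.23 to 22.6 FPKM in the thalamus, so this count rests on low values. Of 26 striatal genes tested, 0 were called by limma-trend, the median was -0.38 and 1, Six3, had regions without overlap. For Adora2a the log2 difference was -0.49 with an SE of 0.91.

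The other genes higher in the thalamus were of several kinds. Resp18 (Entrez 19711), a protein of neuroendocrine secretory granules, was at 89.1, 57, 43.3 and 44.5 FPKM in the hippocampus and 169, 222, 189 and 201 FPKM in the thalamus (log2 difference -1.79, SE 0.23, adjusted p = 0.024), the most abundant call. Peg10, an imprinted gene derived from a retrotransposon, was at 2.27, 3.52, 3.58 and 2.25 FPKM and 17.3, 7.4, 12.8 and 12.4 FPKM (log2 difference -2.04, SE 0.28, adjusted p = 0.031). Irs4, an insulin receptor substrate found mainly in the hypothalamus, was at 0.168, 0.179, 0.0630 and 0.0237 FPKM and 3.51, 1.41, 3.08 and 2.02 FPKM (adjusted p = 0.024). Kctd9, called in 5 of the 8 fits that left out 1 library, was at 2.98, 3.44, 2.83 and 2.94 FPKM and 7.3, 7.93, 8.52 and 8.62 FPKM (log2 difference -1.38, SE 0.15, adjusted p = 0.020). AW551984 was at 2.26, 2.34, 0.841 and 0.603 FPKM and 13.5, 13.1, 12.4 and 10.8 FPKM (log2 difference -3.16, SE 0.41, adjusted p = 0.024). Abhd12b was at 0, 0.0450, 0.0405 and 0.228 FPKM and 7.11, 1.87, 2.66 and 8.77 FPKM (log2 difference -4.75, SE 0.58, adjusted p = 0.024). Kcnk9, which encodes the TASK-3 potassium channel, had the smallest difference of the group, at 12.6, 15, 16.8 and 14.8 and 23.8, 27.2, 25.4 and 26.2 FPKM (log2 difference -0.80, SE 0.12, adjusted p = 0.036), and was the call that the correction for GC content and length removed (adjusted p = 0.11).

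The rest of the 38 had log2 differences between -3.85 and -0.81. They were the gene with Entrez ID 100504068, Arhgap36, Dgkk, H2-Q2, Otof, Cda, Gm19461, Sgpp2, Adcy7, Megf11, Rnd1, Arhgap24, Zdhhc22, Rimkla, Plxdc1, Lgi2 and Gprasp2, together with Gabrq, Klk6 and Hapln2, which are described with their families. H2-Q2 belongs to the class I histocompatibility genes, whose near-identical copies can share reads, and its value is uncertain.

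Higher in the hippocampus were 6 genes of moderate to high level. Arc (Entrez 11838), an immediate early gene whose RNA is carried into dendrites after synaptic activity, was at 52.7, 69.7, 55.5 and 52.7 FPKM in hippocampus replicates 1 to 4 and 23.9, 27.1, 23.3 and 16.1 FPKM in thalamus replicates 1 to 4 (log2 difference 1.36, SE 0.18, adjusted p = 0.024). Without hippocampus replicate 2, its highest library, its adjusted p was 0.055. Plekha2 (Entrez 83436, chromosome 8, 25039144 to 25104679), which encodes a phosphoinositide-binding adaptor, was at 10.6, 18.3, 16.9 and 12.8 FPKM and 3.42, 3.69, 3.44 and 2.88 FPKM (log2 difference 2.07, SE 0.20, adjusted p = 0.019) and was called in 5 of the 8 fits that left out 1 library. Fam163b was at 102, 96.2, 133 and 109 FPKM and 40.3, 46.7, 28.6 and 19 FPKM (log2 difference 1.78, SE 0.26, adjusted p = 0.034). The remaining genes were Limd2 at 32.1, 38.1, 41.2 and 50.6 and 15, 18.2, 15.6 and 8.46 FPKM (log2 difference 1.53, SE 0.24, adjusted p = 0.047), Dnajb5, a chaperone of the HSP40 family, at 58.4, 75.6, 67.9 and 78.7 and 34, 40.9, 29.9 and 25.6 FPKM (log2 difference 1.11, SE 0.16, adjusted p = 0.034), and Yjefn3 at 29.1, 32.5, 24.3 and 26.8 and 15.9, 16.9, 15.3 and 14.7 FPKM (log2 difference 0.83, SE 0.12, adjusted p = 0.034). Hippocampus replicate 2, poor in dentate markers, was the lowest of the 4 for Fam163b and not for the other 5 genes.

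**Figure D3:**
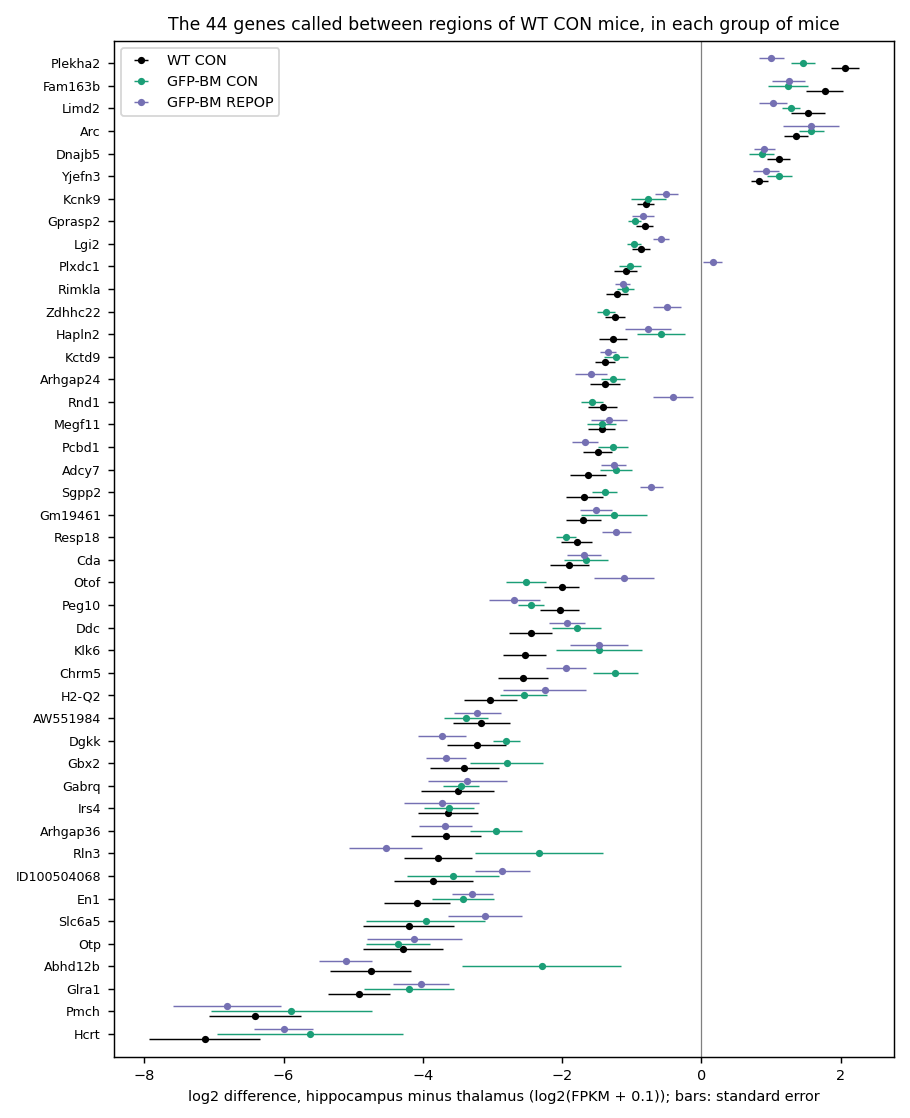
Log2 difference, hippocampus minus thalamus, of the 44 genes called in WT CON mice, with the standard error as bars, in WT CON (black), GFP-BM CON (green) and GFP-BM REPOP mice (violet). Values run from -7.13 for Hcrt to 2.07 for Plekha2 in WT CON mice, and Plxdc1 in GFP-BM REPOP mice, at 0.16, is the 1 value on the other side of 0.

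Activity-regulated genes other than Arc did not pass, and their differences lay on the side of the hippocampus. All 13 immediate early genes tested had a log2 difference above 0, 8 had regions without overlap, and the median was 1.05, with 1 call. Among all genes tested, 6.15% had no overlap with the hippocampus higher and 0.0445% were called in that direction. Junb was at 45.4, 59, 57.3 and 45.9 FPKM and 24.8, 32.6, 26.9 and 19.4 FPKM (log2 difference 1.01, SE 0.17, adjusted p = 0.059), Egr4 at 22.7, 26.2, 26.4 and 20.2 and 10.3, 10.9, 12.2 and 6.08 FPKM (log2 difference 1.30, SE 0.22, adjusted p = 0.058), and Fos at 11.1, 30.9, 15.5 and 9.19 and 7.41, 9.64, 9.99 and 14 FPKM (log2 difference 0.57, SE 0.36, adjusted p = 0.49). Hippocampus replicate 2 was the highest library for Junb, Egr1, Nr4a1 and Fos, and for these 4 genes the mean of the WT CON cortex was above that of the hippocampus, with Arc at 105 ± 27.8 FPKM (SD, n = 3).

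Genes that identify pallial excitatory neurons had positive differences and 0 calls among 11 tested. Slc17a7 was at 436, 338, 566 and 887 FPKM in hippocampus replicates 1 to 4 and 265, 334, 173 and 106 FPKM in thalamus replicates 1 to 4 (log2 difference 1.38, SE 0.40, adjusted p = 0.14). The regions did not overlap, but hippocampus replicate 2 lay just above thalamus replicate 2. Lhx2, a transcription factor of the pallium, was at 23.6, 21.9, 21.6 and 35.1 and 13.2, 14.3, 13.9 and 8.28 FPKM (log2 difference 1.04, SE 0.22, adjusted p = 0.088). Among all 11 genes, 5 had every hippocampus library above every thalamus library, against 6.15% of all genes tested, and the median was 1.31.

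Dentate granule markers had a median of 1.21 over 11 genes tested, 0 called and 0 without overlap. C1ql2 had a log2 difference of 1.21 (SE 1.30) with hippocampus replicate 2 and 2.72 without it. Its adjusted p (limma-trend) went from 0.70 to 0.069. For Lct the difference went from 2.97 to 4.38 and the adjusted p from 0.30 to 0.063. That library had been singled out by its low C1ql2 and Lct. A larger difference of these genes without it follows from that choice and is no separate evidence. Prox1, the transcription factor that specifies granule cells, was at 2.75, 0.834, 12.6 and 10.8 FPKM and 5.94, 2.75, 3.39 and 5.33 FPKM, with no separation of the regions (log2 difference 0.04, SE 0.77, adjusted p = 0.99). CA1 genes gave a median of 0.27 over 8 genes and CA2 and CA3 genes 0.71 over 10, with 0 calls. Fibcd1 of CA1 was at 24.7, 10.3, 5.55 and 5.59 and 8.99, 19.6, 7.88 and 6.9 FPKM, Rgs14 of CA2 at 39.2, 19.1, 39.7 and 36.6 and 16.9, 18.2, 18.9 and 6.93 FPKM (log2 difference 1.18, SE 0.36, adjusted p = 0.16), and Grik4 of CA3 at 10.0, 3.84, 17.1 and 36.5 and 8.62, 11.6, 9.56 and 7.16 FPKM. Hippocampus replicate 4 was the highest library for Grik4 and among the lowest for Fibcd1.

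**Figure D4:**
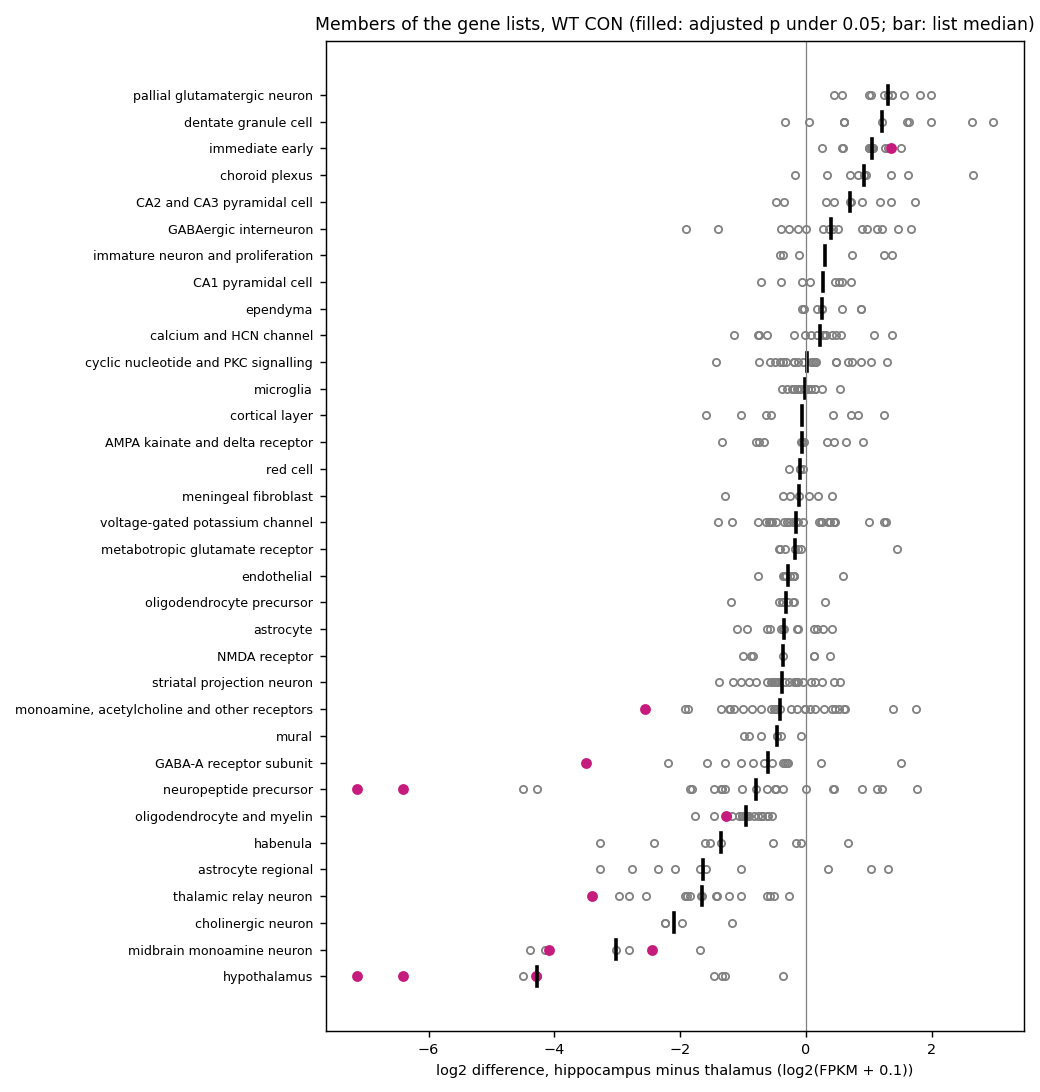
Log2 difference, hippocampus minus thalamus, of each tested member of 34 gene lists in WT CON mice; open circles did not pass, filled circles passed an adjusted p of 0.05, and black bars are list medians. The hypothalamic list has the lowest median (-4.28) and the pallial list the highest (1.31), and most lists hold 0 filled circles.

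Among inhibitory interneuron genes, 0 of 16 were called. Pvalb, the calcium buffer of fast-spiking cells, was at 49.9, 10.2, 18.1 and 46.1 FPKM in the hippocampus and 60.3, 161, 88 and 101 FPKM in the thalamus (log2 difference -1.91, SE 0.52, adjusted p = 0.13). Sst was at 270.0 ± 40.9 and 279.8 ± 93.3 FPKM (SD, n = 4 each), with a log2 difference of 0.00 and an SE of 0.25. Npy was at 85.4, 125, 89.1 and 90.3 FPKM and 46.2, 58.2, 40.7 and 26.6 FPKM, without overlap (log2 difference 1.22, SE 0.24, adjusted p = 0.077). Gad1 was at 139, 423, 171 and 113 FPKM in the hippocampus, where replicate 2 was by far the highest, as it was for the forebrain interneuron factor Dlx1 at 5.15, 40.8, 11.9 and 3.44 FPKM. Over 23 neuropeptide precursors the median was -0.79, with Hcrt and Pmch as the 2 calls, where 0.282% of all genes tested were called higher in the thalamus. Both entered the test through their thalamus libraries alone, so this count and median only describe the genes that passed the filter. The opioid precursor Penk, abundant in the striatum, was at 126, 311, 225 and 15.7 FPKM and 150.3, 111, 346 and 91.7 FPKM, lowest in hippocampus replicate 4 (log2 difference -0.48, SE 0.87, adjusted p = 0.83).

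The GABA-A subunit and monoamine receptor lists gave 1 call each, both higher in the thalamus, where 0.282% of all genes tested were called. Gabrq, the theta subunit of GABA-A receptors, was at 0.0839, 0.413, 0.284 and 0.0247 FPKM in the hippocampus and 3.81, 1.58, 4.13 and 2.55 FPKM in the thalamus (log2 difference -3.50, SE 0.52, adjusted p = 0.034). Its partner in hypothalamic and brainstem receptors, the epsilon subunit gene Gabre, was at 0.120, 0.470, 0.125 and 0.0707 and 1.26, 1.43, 1.16 and 0.692 FPKM, without overlap (log2 difference -2.19, SE 0.46, adjusted p = 0.088). Gabra5, the alpha 5 subunit of extrasynaptic receptors in hippocampal pyramidal cells, stood on the other side, at 29, 30.1, 52.4 and 70.6 FPKM and 20.6, 10.4, 17.2 and 12.8 FPKM (log2 difference 1.52, SE 0.32, adjusted p = 0.088). Of 14 GABA-A subunits tested, 12 had a log2 difference below 0 and the median was -0.60. Gabrq and Gabre entered the test through their thalamus libraries alone, so this count and median only describe the genes that passed the filter. The monoamine, acetylcholine, adenosine, opioid and cannabinoid receptor list, with 29 tested, had Chrm5 as its call and a median of -0.41. Chrm5, too, entered through its thalamus libraries alone.

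Glutamate receptors gave 0 calls among 11 AMPA, kainate and delta subunits, 7 NMDA subunits and 7 metabotropic receptors. The AMPA subunit gene Gria1 was at 146, 110.4, 155 and 211 FPKM and 87.5, 87.5, 88 and 62.2 FPKM, without overlap (log2 difference 0.91, SE 0.21, adjusted p = 0.096), and Grm2 at 24.5, 35.5, 27.4 and 36.3 and 10.2, 15.7, 7.12 and 13.1 FPKM (log2 difference 1.45, SE 0.25, adjusted p = 0.059). Grin2a, an NMDA subunit gene, was at 2.16, 1.81, 6.98 and 5.55 and 5.36, 1.93, 3.58 and 2.89 FPKM, where the spread within each region exceeded the difference of 0.13. Gria2, an AMPA subunit gene, was at 3.13, 4.44, 9.22 and 8.78 and 18.8, 3.25, 3.63 and 6.02 FPKM (log2 difference -0.06, SE 0.57, adjusted p = 0.97), highest in thalamus replicate 1.

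The lists of 29 voltage-gated potassium channel genes, 16 calcium and HCN channel genes and 22 cyclic nucleotide and protein kinase C genes, gave 0 calls, while the called genes Kcnk9, the adenylyl cyclase gene Adcy7 and the diacylglycerol kinase gene Dgkk are outside them. Cacna1h, a T-type calcium channel, was at 27.5, 33.1, 31.4 and 34.3 FPKM in the hippocampus and 12.9, 16.1, 15.4 and 6.65 FPKM in the thalamus (log2 difference 1.37, SE 0.26, adjusted p = 0.077). Cacna1g, the T-type channel of thalamic burst firing, was at 15.7, 27.3, 11.8 and 10.3 and 21.9, 25.6, 18.8 and 27.1 FPKM (log2 difference -0.61, SE 0.29, adjusted p = 0.34). Kcnip2, a subunit of A-type potassium channels, was at 116, 126, 142 and 211 and 68.8, 73.9, 97.9 and 27.5 FPKM (log2 difference 1.25, SE 0.37, adjusted p = 0.15). Hcn2, which carries pacemaker current, was at 67.8, 59.3, 48.7 and 65.1 and 76.3, 143, 94.8 and 101 FPKM (log2 difference -0.76, SE 0.20, adjusted p = 0.12). The second messenger gene Adcy5, a striatal adenylyl cyclase, was at 74.5, 98.3, 83.7 and 31.8 and 75.3, 72.3, 123 and 49 FPKM (log2 difference -0.19, SE 0.38, adjusted p = 0.86).

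Myelin genes gave 1 call, lower in the hippocampus. All 21 tested had a log2 difference below 0, 6 had regions without overlap, and the median was -0.95. Among all genes tested, 4.13% had no overlap with the thalamus higher and 0.282% were called in that direction. The call was Hapln2 (Entrez 73940), a link protein of the matrix at nodes of Ranvier, at 19, 12.4, 12.8 and 10.9 FPKM in hippocampus replicates 1 to 4 and 28.5, 36.2, 27.1 and 39.9 FPKM in thalamus replicates 1 to 4 (log2 difference -1.27, SE 0.20, adjusted p = 0.046). Klk6, a secreted protease of oligodendrocytes that is not in the list, was called too, at 2.74, 2.72, 2.08 and 1.47 FPKM and 9.03, 22.4, 10.9 and 13.6 FPKM (log2 difference -2.54, SE 0.31, adjusted p = 0.024). Mbp, the myelin basic protein gene, was at 585, 305, 364 and 291 and 566, 1019.9, 697 and 765 FPKM, with hippocampus replicate 1 above thalamus replicate 1 (log2 difference -1.01, SE 0.26, adjusted p = 0.12). Without hippocampus replicate 2, the adjusted p of Hapln2 was 0.071.

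Astrocyte genes shared by all regions gave 0 calls among 13 and a median of -0.35, and Gfap was at 122, 73.6, 62.9 and 122 FPKM and 63, 146, 69 and 75.3 FPKM. Genes of astrocytes of particular regions were further apart. Agt, the angiotensinogen gene of diencephalic and brainstem astrocytes, was at 34, 4.04, 4.95 and 18.2 FPKM in the hippocampus and 48.5, 102, 65.6 and 84.8 FPKM in the thalamus (log2 difference -2.76, SE 0.64, adjusted p = 0.099). Itih3 was at 19.6, 14.3, 6.75 and 9.92 and 32.2, 43.2, 39.4 and 37.9 FPKM (log2 difference -1.69, SE 0.29, adjusted p = 0.061) and Sparc at 86.5, 61.4, 33.7 and 56.2 and 131, 226, 161 and 170.0 FPKM (log2 difference -1.58, SE 0.28, adjusted p = 0.063). Of 10 such genes, 0 were called. The regions did not overlap for 4 with the higher level in the thalamus (Agt, Itih3, Sparc and Irx3) and for 2 with the higher level in the hippocampus, among them the forebrain factor Lhx2 with a log2 difference of 1.04. The shares of all genes tested without overlap were 4.13% higher in the thalamus and 6.15% higher in the hippocampus.

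Microglial genes gave a median log2 difference of -0.01 over 18 genes, with 0 called and 0 without overlap. Csf1r, the growth factor receptor that microglia depend on, was at 25.7 ± 3.38 FPKM in the hippocampus and 25.6 ± 7.36 FPKM in the thalamus (SD, n = 4 each; log2 difference 0.04, SE 0.20). P2ry12, a purinergic receptor of resting microglia, varied within regions, at 1.09, 2.1, 4.43 and 2.07 FPKM and 6.7, 0.616, 2.86 and 5.03 FPKM. Endothelial genes had a median of -0.28 over 10 and mural genes -0.46 over 7, with 0 calls in either. Cldn5 of the blood-brain barrier was at 36.7, 35.1, 19.6 and 24.2 and 29.8, 46.9, 31 and 24.3 FPKM, and Pdgfrb of pericytes at 7.15, 6.9, 5.02 and 4.93 and 5.74, 8.22, 5.7 and 5.52 FPKM.

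Markers of cells at the edges of a dissection gave 0 calls: 8 ependymal genes (median 0.25), 7 meningeal fibroblast genes (-0.11) and 4 red cell genes (-0.09). The 8 oligodendrocyte precursor genes (-0.32), the 8 cortical layer genes (-0.06) and the 6 genes of immature or dividing cells (0.31) gave 0 as well. Foxj1 of ciliated cells was at 21.3, 6.94, 5.77 and 2.85 FPKM and 4.71, 8.4, 5.44 and 12.3 FPKM, highest in hippocampus replicate 1, the library with the most Ttr. Hbb-bs of red cells was at 28.3, 8.67, 12.2 and 30.4 and 24.2, 14.8, 17.1 and 31.9 FPKM in perfused mice.

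Further genes chosen as anchors of these lists did not pass or were too low to be tested. Neurod6 of pallial pyramidal neurons was at 17.3, 5.62, 43.1 and 59.4 FPKM in the hippocampus and 13.8, 3.75, 6.73 and 2.75 FPKM in the thalamus (log2 difference 1.98, SE 0.75, adjusted p = 0.24), and Cck, a peptide gene of cortical and hippocampal neurons, at 353, 292, 360.0 and 513 and 207, 313, 167 and 151 FPKM (log2 difference 0.89, SE 0.25, adjusted p = 0.14). Wfs1, a CA1 marker that striatal neurons also express, was at 48.1, 33.7, 20.2 and 18 and 28.2, 52.9, 50.7 and 22.9 FPKM, and Iyd of CA3 at 1.04, 0.0631, 3.1 and 5.06 and 0.623, 0.686, 0.511 and 1.1 FPKM. Fezf2, a factor of deep cortical layers, was at 18.2, 7.07, 7.14 and 10.8 and 8.7, 13.1, 5.83 and 1.44 FPKM. The peptide gene Tac2, which is strong in the medial habenula, was at 19, 6.93, 2.72 and 1.95 and 9.04, 13.5, 10.6 and 24.6 FPKM (log2 difference -1.35, SE 0.66, adjusted p = 0.36).

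Among receptors and channels, Gabrd, the delta subunit of extrasynaptic GABA-A receptors in thalamus and dentate gyrus, was at 28.2, 38.1, 35.9 and 31.1 FPKM in the hippocampus and 27.3, 29.7, 33.4 and 23 FPKM in the thalamus (adjusted p = 0.49). Grm4, a presynaptic glutamate receptor gene, was at 10.6, 30.1, 10.8 and 5.78 and 12, 17, 17.4 and 18.1 FPKM. The dopamine receptor gene Drd2 was at 19.2, 27.3, 24.3 and 3.69 and 20.9, 20.5, 41.9 and 12.6 FPKM, the muscarinic receptor gene Chrm4 at 11.8, 22.4, 16.1 and 6.54 and 11.1, 11.4, 18.7 and 5.3 FPKM, and in the hippocampus both were lowest in replicate 4. The opioid receptor gene Oprm1 was at 0.0795, 0.203, 0.116 and 0.0934 and 0.868, 0.164, 0.239 and 0.871 FPKM, too low to be tested. The potassium channel genes Kcna1 and Kcnc2 were at 6.53, 8.58, 24.6 and 18.1 and 27.4, 7.31, 22.8 and 27.1 FPKM and at 7.75, 7.82, 13.3 and 20.5 and 23.3, 12.3, 19.6 and 24.8 FPKM.

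In glia and other cells, the GABA transporter gene Slc6a11, which is stronger in astrocytes outside the cortex, was at 101, 171, 43.2 and 63.3 FPKM in the hippocampus and 124, 219.5, 162 and 191 FPKM in the thalamus (log2 difference -1.04, SE 0.39, adjusted p = 0.23). The water channel gene Aqp4 of astrocytes was at 5.13, 8.95, 10.5 and 7.52 and 27.8, 4.61, 17.6 and 33.9 FPKM, Pdgfra of oligodendrocyte precursors at 8.35, 8.84, 7.46 and 6.96 and 9.89, 7.18, 10.4 and 9.11 FPKM, Dcn of meningeal fibroblasts at 7.13, 9.14, 3.67 and 2.74 and 14.9, 14, 12.9 and 9.31 FPKM and Dcx of immature neurons at 0.128, 2.27, 1.66 and 0.210 and 2.31, 0.351, 0.611 and 1.09 FPKM.

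The same regional contrast could be read in transplanted mice, which are other animals, with 4 hippocampus and 3 thalamus libraries of GFP-BM CON and 4 of either region of GFP-BM REPOP mice. In GFP-BM CON mice, 1153 genes (8.56%) were higher in the hippocampus and 870 (6.46%) in the thalamus. In GFP-BM REPOP mice the numbers were 1651 (12.3%) and 2193 (16.3%). The median size of the log2 difference was 0.228 in GFP-BM CON, 0.281 in GFP-BM REPOP and 0.227 in WT CON mice, while the median standard error was 0.143, 0.154 and 0.211. Of the 44 WT CON calls, 38 were called in the same direction in GFP-BM CON and 38 in GFP-BM REPOP mice, 34 in both. These 38 were 86.4% of the WT CON calls, 1.88% of the GFP-BM CON calls and 0.989% of the GFP-BM REPOP calls. All 44 had the same direction in GFP-BM CON and 43 in GFP-BM REPOP mice.

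Hcrt differed by -5.62 in GFP-BM CON mice (adjusted p = 0.029) and by -6.00 in GFP-BM REPOP mice (adjusted p = 0.00085, limma-trend), with 43.3 ± 33.3 FPKM (SD, n = 3) and 33.2 ± 15.7 FPKM (SD, n = 4) in their thalamus. For Pmch the values were -5.89 and -6.82 (adjusted p = 0.014 and 0.0019), for Glra1 -4.20 and -4.03 (0.0060 and 0.0014), for Ddc -1.79 and -1.93 (0.014 and 0.0024) and for Arc 1.58 and 1.57 (0.0022 and 0.018). Hapln2 was not called in either group, at -0.57 and -0.76 (0.29 and 0.11). Plxdc1 was at -1.02 in GFP-BM CON (0.0058) and 0.16 in GFP-BM REPOP mice (0.40).

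Several lists with few or no calls in WT CON mice had calls in the other animals, and whether the counts differ was not tested. Of 11 pallial genes, 10 were called higher in the hippocampus in GFP-BM CON and 7 in GFP-BM REPOP mice. Of 17 relay-neuron genes, 6 and 15 were called higher in the thalamus. Striatal genes gave 18 of 26 calls higher in the thalamus in GFP-BM CON mice and 3 in GFP-BM REPOP mice. Dentate genes gave 5 of 11 higher in the hippocampus in GFP-BM CON mice and 0 in GFP-BM REPOP mice, where 2 were higher in the thalamus. Over all genes tested, 8.56% were called higher in the hippocampus and 6.46% in the thalamus in GFP-BM CON mice. In GFP-BM REPOP mice these shares were 12.3% and 16.3%, so the 3 striatal and 2 dentate calls there were near the share of all genes. The 12 dentate markers summed to 122, 176, 151 and 92.7 FPKM in the GFP-BM CON hippocampus and to 55.5, 83, 118 and 39.3 FPKM in the GFP-BM REPOP hippocampus, and the striatal sum reached 3469.7 FPKM in GFP-BM REPOP hippocampus replicate 4. Genes of the olfactory mucosa summed to 493, 119, 1.31 and 1.9 FPKM in the GFP-BM REPOP hippocampus.

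Whether the regional difference itself differed between WT CON and GFP-BM REPOP mice was tested as an interaction. It was called for 0 of 13472 genes by limma-trend (736 before adjustment, with 0.11 as the lowest adjusted p), and for 0 to 9 genes in the alternatives that kept all libraries. Leaving out 1 library gave 0 to 3 genes, leaving out replicate 1 of both regions 7 and using hippocampus replicate 4 alone 23. For Hcrt the difference of differences was -1.13 (SE 1.37) and for Arc -0.21 (SE 0.43). This test sets WT CON against GFP-BM REPOP mice only, so irradiation, transplant and inhibitor cannot be told apart in it.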

How the data were processed

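Bulk RNA from microdissected regions was sequenced as paired-end reads on Illumina instruments. Per the methods and the submitters' processing notes, the authors aligned reads with STAR to mm10, counted them per gene with featureCounts and deposited FPKM values for 16389 genes in 34 libraries, which limits the choice of test, as FPKM are not counts. Groups were taken from the sample titles. Steps between low values gave whole reads for 99.99% of genes (within 0.1 read), from which depth was taken; the library depth was 17622874 to 23646772 reads.

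Genes with at least 1 FPKM in 3 or more of the 8 libraries were kept (13785), and 313 of biotypes other than protein coding, lncRNA or unknown were left out. Differences were tested with limma 3.58.1 (R 4.3.3; empirical Bayes with a mean trend, two-sided) on log2(FPKM + 0.1), with Benjamini-Hochberg adjustment over 13472 genes and a threshold of 0.05. A fold change on this scale understates that of low genes. The fit was tested on simulated data.

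The number inside the bracketed name of a title marks the animal, so the regions are paired. Replicate numbers follow the animals in the WT CON hippocampus and thalamus, but not everywhere. In GFP-BM CON mice, replicate 3 was animal 7 in the hippocampus and animal 9 in the thalamus. Deviations of the same animal from its group means correlated at -0.652, -0.028, 0.238 and -0.118 over genes, and the correlation of repeated regions of an animal over 6 groups was -0.063. The reported test has no block, and the blocked counts are given beside it. Separate mice are the replicates of a region.

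Gene positions and promoters came from RefSeq, GRCm38.p6, the assembly of the mm10 build. The gene lists, anchors and comparisons were chosen with earlier results of these data known. Named were the anchors of 34 lists, called genes ranked by size or adjusted p with a mean of at least 5 FPKM, and the leading call of each list. Other genes were named after their values were seen. A few anchors are not reported here. Strand of counting was not given in the sources used here, so overlapping genes cannot be separated. Alternatives covered pseudocount, filters, scaling, GC content and length correction, blocking, weights and leaving out libraries.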

Additional observations from a re-analysis of the deposited data

Results flagged for a closer look

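Of 138 groups of 4 libraries (1 gene in 1 region, with a library at 1 FPKM or more), 17 held a library far apart from the other 3 by Dixon's 95% criterion. It was applied to FPKM without a logarithm. Its chance rate of about 1 in 20 groups holds for normally distributed values, so the 17 cannot be set against that rate. In hippocampus replicate 1, the choroid plexus genes Ttr (6324 FPKM against 17.1 to 740.0 in the other libraries) and Kl (56.9 against 1.55 to 9.02) and the habenula gene Gpr151 (4.70 against 0.0910 to 0.655) stood above the rest. In hippocampus replicate 2, Th (69.1 FPKM against 0.225 to 5.30) and Arc (69.7 against 52.7 to 55.5) were apart at the top, and the CA2 gene Rgs14 (19.1 against 36.6 to 39.7) at the bottom. In hippocampus replicate 4, the striatal gene Ppp1r1b (35.8 FPKM against 226 to 253) and the cholinergic gene Chat (0.140 against 1.39 to 1.45) were far lower.

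Thalamus replicate 2 stood above the other thalamus libraries in Th (40.2 FPKM against 7.16 to 10.6), C1ql2 (31.5 against 9.29 to 11.3), Fibcd1 (19.6 against 6.90 to 8.99), Gfap (146 against 63.0 to 75.3) and Pdgfrb (8.22 against 5.52 to 5.74). Thalamus replicate 4 was highest in Tcf7l2 (38.8 FPKM against 18.4 to 19.2) and Gpr151 (12.4 against 0.823 to 1.96), and lowest in Gria1 (62.2 against 87.5 to 88.0) and Rgs14 (6.93 against 16.9 to 18.9).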

How the results depend on the processing

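The counts are those of genes higher in the WT CON hippocampus, genes higher in the thalamus, calls found again in GFP-BM REPOP and in GFP-BM CON mice, and genes whose difference differed between WT CON and GFP-BM REPOP mice. As reported they were 6, 38, 38, 38 and 0, and the sets below keep this order. The counts stayed within 1.5 times of these with a pseudocount of 1 or 0.01, without the biotype filter and among genes with a GC content. They were 8, 47, 48, 46 and 1 with no filter on low values, 2, 9, 9, 10 and 0 with a stricter filter, 28, 68, 77, 77 and 0 after quantile normalization, 20, 61, 65, 68 and 1 with median-ratio scaling, 3, 35, 32, 34 and 0 without the mean trend, 600, 541, 747, 921 and 0 with library quality weights and 1558, 1109, 1644, 1390 and 9 with all 9 groups in 1 fit. Correction for GC content and length gave 98, 319, 292, 298 and 1. The replicate block, which pairs the regions of a mouse, gave 0, 1, 1, 1 and 0, and 1, 1, 2, 2 and 0 with the same correction. Settings chosen after seeing the data were voom on recovered reads (2, 13, 13, 13 and 0), leaving out the libraries with the highest GC measure, hippocampus replicate 1 and thalamus replicate 2 (69, 190, 164, 159 and 0), hippocampus replicate 4 alone, assumed to vary like the other libraries (0, 7, 7, 6 and 23), and the correction without hippocampus replicate 2 (158, 298, 302, 375 and 0). Without replicate 1 of both regions, the counts were 3, 61, 43, 42 and 7, and leaving out each library in turn gave ranges of 0 to 105, 0 to 122, 0 to 181, 0 to 173 and 0 to 3. The cause of these changes was not tested. The 44 calls kept their direction in every fit that held them. Planned fits with edgeR and DESeq2 were not run, since the values are FPKM.

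Genes that changed sign had small or unstable log2 differences, and none was a call. They were Sst -0.004 and Csf1r -0.065 with the GC content and length correction (Sst -0.004 and Csf1r -0.065 with the block too), Sst -0.11, Csf1r -0.011, Pdgfrb 0.007 and Foxj1 0.019 after quantile normalization, Pdgfrb 0.003 and Fibcd1 0.054 with quality weights, Sst -0.012 with median-ratio scaling, Sst -0.029 with voom and Foxj1 0 with a pseudocount of 1. With hippocampus replicate 4 alone they were Ttr -1.25, Sst -0.075, Gad1 -0.33, Kcnc2 0.083, Hbb-bs 0.53, Chrm4 -0.69 and Fos -0.12. Without replicate 1 of both regions they were Ttr -1.07, Sst -0.038, Gfap -0.14, Csf1r -0.14, P2ry12 0.33 and Dcx 0.59, without the libraries of highest GC measure Ttr -0.63, and without hippocampus replicate 2 under the correction Gad1 -0.064, Hbb-bs 0.061, Chrm4 -0.076 and Csf1r -0.04. The signs of Adcy5 (-0.40 to 0.17), Adora2a (-0.86 to 0.43), Chrm4 (-0.046 to 0.61), Csf1r (-0.066 to 0.21), Dcx (-0.97 to 0.15), Drd1 (-0.52 to 0.74), Drd2 (-0.85 to 0.099), Fibcd1 (-0.53 to 0.26), Foxj1 (-0.56 to 0.40), Gad1 (-0.025 to 0.61), Gfap (-0.008 to 0.40), Grik4 (-0.06 to 1.01), Grin2a (-0.20 to 0.43), Hbb-bs (-0.54 to 0.057), P2ry12 (-1.06 to 0.024), Pdgfrb (-0.16 to 0.064), Penk (-0.99 to 0.45), Ppp1r1b (-0.47 to 0.53), Prox1 (-0.47 to 0.79), Sst (-0.24 to 0.19) and Ttr (-0.80 to 2.04) changed when 1 library was left out, with the ranges given. With 17622874 to 23646772 reads a library, genes below 1 FPKM can rest on few reads. What limited the number of calls was not tested.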
